A study of Homo sapiens with 19 samples.

Results

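The NSL (non-specific lethal) complex is the second chromatin complex that contains MCRS1, a protein better known in this study as a subunit of the INO80 chromatin remodeling complex (INO80-C). Its other subunits were followed here through the mRNA of 8 genes, KAT8, KANSL1, KANSL2, KANSL3, PHF20, WDR5, HCFC1 and OGT, taken by symbol from 34825 genes listed in the expression tables. In the NSL complex the MYST family enzyme KAT8 (also called MOF) acetylates histone H4, with KANSL1 as the scaffold that holds KAT8 and WDR5. KANSL2 and KANSL3 are further structural subunits, PHF20 reads methylated lysines, HCFC1 is a co-regulator brought to promoters by transcription factors, and OGT attaches O-linked N-acetylglucosamine to proteins and cleaves HCFC1 into its mature form. The complex is known at promoters of housekeeping genes, while KAT8 also works in a separate complex, MSL, and WDR5 in the H3K4 methyltransferase complexes.

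mRNA-seq was made from HepG2, a human liver cancer cell line, in 2 experiments. In the INO80 experiment, cells received a control siRNA (NTG), siINO80#1 or siINO80#2, with 3 libraries each, labeled A, B and C. In the drug experiment, cells were kept in DMSO or in 1 µM EPZ-6438, which inhibits EZH2, the methyltransferase of H3K27, from 3 days before transfection with NTG or with siMCRS1. That gave 2 libraries of DMSO NTG, 3 of DMSO siMCRS1, 3 of EPZ-6438 NTG and 2 of EPZ-6438 siMCRS1. Every siRNA was used at 50 nM and the cells were harvested 72 hours after transfection. MCRS1 was targeted by 1 siRNA, and both siRNAs against INO80 were compared with the same NTG libraries. The labels do not say that replicates came from separate cultures, so p-values measure the spread between these libraries, which may be technical.

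Values are normalized counts, that is, the counts of a gene after division by a size factor of the library, and levels are compared within 1 experiment and within 1 gene only. The reads recovered from these values over all listed genes were 17093574 to 25369547 in a library of the INO80 experiment and 26038505 to 47397233 in one of the drug experiment. A member was covered by 306 to 5061 reads in the first and by 333 to 7469 in the second, far above a floor of 3 reads. The targets followed the labels. INO80 mRNA was 48.1% of NTG with siINO80#1 and 36.4% with siINO80#2, and MCRS1 mRNA was at 7.99% of NTG in DMSO siMCRS1 and at 7.93% in EPZ-6438 siMCRS1. MCRS1 itself was 95.3% and 91.6% of NTG with siINO80#1 and siINO80#2, and neither difference passed the test. The reverse did not hold, since INO80 mRNA fell when MCRS1 was targeted. It was 83.0% of its NTG level in DMSO (log2 difference -0.27, limma adjusted p = 0.039). Under EPZ-6438 it was 78.3% (-0.35, limma adjusted p = 0.0097). The siMCRS1 libraries therefore also held less INO80 mRNA. All 8 hepatocyte markers examined were above the floor in every library. The library siINO80#2 C stood apart, with 37.0% of its normalized counts in its 100 most abundant genes against 25.3% to 28.8% in the other 8 libraries of its experiment, and calls of members that change without it are given with both values. In such bulk libraries, fewer cells of a kind and less RNA per cell cannot be told apart.

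The genes lie on 7 chromosomes in GRCh38.p14 (RefSeq). KAT8 spans chromosome 16, 31117664 to 31131393, and OGT chromosome X, 71533104 to 71575892, with no other annotated gene in either span. The span of KANSL3 on chromosome 2, 96580494 to 96638312, holds none either. KANSL2 (chromosome 12, 48653211 to 48682238) contains 3 small nucleolar RNA genes and a microRNA gene, and PHF20 (chromosome 20, 35772015 to 35950370) contains 4 annotated pseudogenes. WDR5 (chromosome 9, 134135199 to 134159968) overlaps the divergent transcript WDR5-DT, HCFC1 (chromosome X, 153947557 to 153971818) overlaps HCFC1-AS1, and KANSL1 (chromosome 17, 46029916 to 46225367) overlaps KANSL1-AS1. Whether strand was used in counting is not given in the sources used here, so reads of these overlapping genes cannot be told apart. KANSL1 also lies in a region with partial duplicated copies, and its values are uncertain for that reason as well.

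Promoter sequences were read from RefSeq windows of GRCh38.p14 for 6 of the 8 genes, and 3 of them are shown because each has 1 annotated start and belongs to a gene whose mRNA changed with siMCRS1 (KANSL2) or with siINO80 (PHF20 and OGT). No window was available for KAT8 and HCFC1, so these were not searched. Each stretch shown runs 5′ to 3′ along the gene from 180 bases before the start to 20 bases after it. Capitals mark matches on either strand to 7 short words of known factors or elements. YY1, a subunit of INO80-C, was searched as GCCGCCAT and NRF1 as CGCATGCG. The word for ZNF143 and THAP11, which recruit HCFC1, was ACTACANTT, and that for ETS family factors was CCGGAAG. The other words were CCAAT for the box of that name, GGGCGG for the GC box and TGACGT for the cyclic AMP response element (CRE). No word contains another. KANSL2 is at chr12:48682219-48682418 on the minus strand, PHF20 at chr20:35771835-35772034 on the plus strand and OGT at chrX:71532924-71533123 on the plus strand.
KANSL2: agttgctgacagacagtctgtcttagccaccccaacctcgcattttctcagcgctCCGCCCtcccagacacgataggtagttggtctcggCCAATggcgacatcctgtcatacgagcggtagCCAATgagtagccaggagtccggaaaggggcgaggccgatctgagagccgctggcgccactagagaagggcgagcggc
PHF20: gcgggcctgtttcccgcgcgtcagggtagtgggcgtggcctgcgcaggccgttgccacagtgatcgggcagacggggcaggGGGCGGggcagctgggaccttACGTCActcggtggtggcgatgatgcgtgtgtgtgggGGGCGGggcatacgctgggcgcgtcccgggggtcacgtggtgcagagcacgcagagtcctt
OGT: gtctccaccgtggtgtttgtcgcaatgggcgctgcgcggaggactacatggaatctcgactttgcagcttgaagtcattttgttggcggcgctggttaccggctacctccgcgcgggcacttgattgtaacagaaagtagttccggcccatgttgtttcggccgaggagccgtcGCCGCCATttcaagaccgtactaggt
In these stretches KANSL2 carries a CCAAT box 90 and another 58 bases before the start and a GC box on the reverse strand, PHF20 a CRE word on the reverse strand and 2 GC boxes, and OGT the YY1 word across the start itself. In the full RefSeq windows, from 250 bases before to 50 bases after a start, the YY1 word was found in 3% of 35116 windows. Among the 6 members searched it was in OGT only. The NRF1 word (2.02% of windows) was also found in OGT, 190 bases before the start, and the ZNF143 and THAP11 word (1.34%) in 1 of the windows of KANSL1. The CRE word was in 7.98% of windows and, of the members, in PHF20. The GC box was in 45% of windows and in 9 of the 12 windows of members, with at least 1 for each of the 6. The ETS word, in 10.3% of windows, was in 2 of these 12 (KANSL3 and WDR5), and the CCAAT box, in 34.6%, also in 2 (KANSL2 and WDR5). These matches describe the letters and do not mark bound sites.

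The first question was what loss of MCRS1 did to mRNA of its partners in the NSL complex. With siMCRS1 in DMSO, 1 of the 8 members fell (KAT8), 2 rose (KANSL2 and WDR5), and 5 did not pass the test. In EPZ-6438, 2 fell (KAT8 and HCFC1), 2 rose (KANSL2 and WDR5) and 4 did not pass. The test was limma on log2(normalized count + 1) across all tested genes, with a Benjamini-Hochberg adjusted p under 0.05. Over all genes tested, 47.7% passed in DMSO, 23.1% higher and 24.6% lower, and 53.7% passed in EPZ-6438, 26.8% higher and 26.9% lower. So 3 and 4 of 8 members is no larger a share than over all genes. Here and below, whether groups overlapped describes the libraries of a member only. No share of all genes without overlap was counted to set beside it. The median log2 difference of the members was 0.09 in DMSO and 0.13 in EPZ-6438, against 0.00 and 0.01 over all genes. With libraries rescaled to equal totals these medians turned to -0.15 and -0.11, while the median of all genes moved to -0.23 in both. Under quantile normalization the members' medians were -0.08 and -0.07, against 0.01 and 0.05 over all genes. Whether the members' median lay above or below that of all genes thus depended on the scaling.

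KAT8, the acetyltransferase subunit, had the largest difference of the 8. In DMSO its levels were 1394 and 1033 normalized counts with NTG and 575, 435 and 477 with siMCRS1. In EPZ-6438 they were 1506, 1250 and 1132 with NTG and 541 and 430 with siMCRS1. Every siMCRS1 library lay below every NTG library, and the highest of them, at 575, was well under the lowest NTG library, at 1033. The mean with siMCRS1 was 40.9% of NTG in DMSO, a log2 difference of -1.28 (SE 0.18, adjusted p = 0.00029). In EPZ-6438 it was 37.5%, a log2 difference of -1.41 (SE 0.18, adjusted p = 0.00011). Of all tested genes, 7.88% had a lower value than KAT8 in DMSO and 8.59% in EPZ-6438. The fall passed the test in all 14 alternatives run in each treatment, with log2 differences from -1.52 to -1.07 in DMSO and from -1.65 to -1.25 in EPZ-6438.

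**Figure D1:**
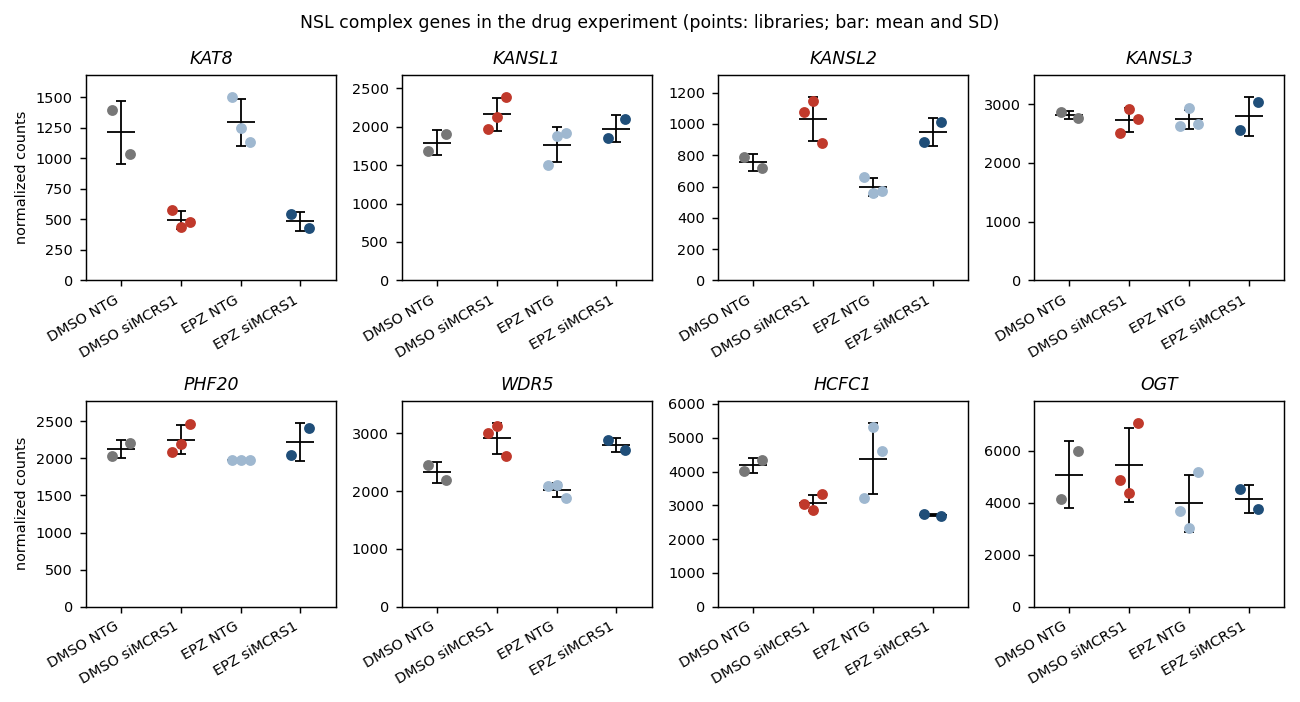
Normalized counts (linear axes from 0) of the 8 NSL complex genes in the drug experiment, by group. Points are libraries and black bars give the mean and SD of 2 or 3 libraries. The siMCRS1 libraries of KAT8, between 430 and 575, all sit below the NTG libraries, which start at 1033, while KANSL2 and WDR5 sit higher with siMCRS1 in both treatments.

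KANSL2 and WDR5 moved the other way. KANSL2, whose promoter is printed above, had 792 and 717 normalized counts in DMSO with NTG and 1078, 1148 and 877 with siMCRS1. With EPZ-6438 its levels were 663, 559 and 570 with NTG and 883 and 1013 with siMCRS1. The groups did not overlap in either treatment. KANSL2 was thus at 137% of NTG in DMSO (log2 difference 0.45, SE 0.14, adjusted p = 0.024) and at 159% in EPZ-6438 (0.67, SE 0.14, adjusted p = 0.0025).
WDR5, the WD40 protein that KANSL1 binds and that histone methyltransferases share, had 2453 and 2200 normalized counts with NTG in DMSO and 2998, 3127 and 2613 with siMCRS1. In EPZ-6438 the levels were 2080, 2109 and 1878 with NTG and 2880 and 2719 with siMCRS1. Again no siMCRS1 library reached down to an NTG library of its treatment. The log2 difference was 0.32 in DMSO (SE 0.11, adjusted p = 0.030) and 0.47 in EPZ-6438 (SE 0.11, adjusted p = 0.0039).
These rises were smaller than the fall of KAT8 and depended more on single libraries. In DMSO both lost their call when DMSO NTG 1, DMSO NTG 3, DMSO siMCRS1 1 or DMSO siMCRS1 2 was left out, so that 1 of the 8 members, KAT8, then passed. When libraries were rescaled to equal totals, which lowered the median of all genes by 0.23 on the log2 scale, the DMSO differences became 0.21 for KANSL2 and 0.09 for WDR5 and neither passed. On that scale 27.0% of the genes called in DMSO were higher, against 48.4% as deposited, and 30.1% against 49.9% in EPZ-6438. In EPZ-6438 KANSL2 kept its call there and WDR5 (0.23) did not. Quantile normalization also removed the DMSO call of WDR5 (0.17, limma adjusted p = 0.17) and kept that of KANSL2 (0.51, limma adjusted p = 0.011). Of the 14 alternatives in DMSO, WDR5 passed in 7 and KANSL2 in 9.

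HCFC1 had the second largest fall of the 8 in EPZ-6438. Its levels were 4025 and 4338 normalized counts with NTG and 3026, 2855 and 3335 with siMCRS1 in DMSO. In EPZ-6438 they were 3229, 5306 and 4608 with NTG and 2737 and 2696 with siMCRS1. Every siMCRS1 library lay below the NTG libraries of its treatment, although the EPZ-6438 NTG libraries were spread widely and the lowest of them was under the highest siMCRS1 library in DMSO. The difference passed in EPZ-6438 (log2 difference -0.66, SE 0.17, adjusted p = 0.0078) and just missed in DMSO (-0.45, SE 0.17, adjusted p = 0.052). The DMSO value passed in 5 of 14 alternatives, among them equal totals (-0.68, adjusted p = 0.0064), quantile normalization (-0.63, adjusted p = 0.015) and edgeR on the recovered reads (-0.45, adjusted p = 0.045).

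The remaining members did not pass the test with siMCRS1 in either treatment. KANSL1, the scaffold, had 1681 and 1903 normalized counts in DMSO NTG and 1966, 2121 and 2389 in DMSO siMCRS1. Its groups did not overlap in DMSO, yet the log2 difference of 0.27 had a 95% interval from -0.03 to 0.56. In EPZ-6438 its levels were 1503, 1876 and 1913 with NTG and 1846 and 2097 with siMCRS1, and these overlapped.
KANSL3 had the smallest difference in both treatments. It was at 2866 and 2763 with NTG and 2511, 2928 and 2747 with siMCRS1 in DMSO, and at 2631, 2933 and 2669 and then 2557 and 3032 in EPZ-6438. The 95% interval of its log2 difference ran from -0.29 to 0.19 in DMSO and from -0.22 to 0.26 in EPZ-6438. KANSL3 fell in DMSO when libraries were rescaled to equal totals (-0.28, adjusted p = 0.031).
PHF20 was at 2038 and 2208 with NTG and 2092, 2195 and 2468 with siMCRS1 in DMSO. In EPZ-6438 its 3 NTG libraries were nearly equal, at 1980, 1981 and 1984, and the siMCRS1 libraries were at 2045 and 2404. Its log2 difference there was 0.16, with an interval from -0.07 to 0.40.
OGT had the widest error of the 8 in the drug experiment. In DMSO it had 4164 and 5987 normalized counts with NTG and 4884, 4386 and 7079 with siMCRS1. In EPZ-6438 it had 3700, 3048 and 5182 with NTG and 4546 and 3778 with siMCRS1. In each of the 3 groups with a library numbered 3, that library was the highest for OGT. It was also the highest in each for KANSL1 and PHF20, and the lowest in each for WDR5. KAT8, KANSL2, KANSL3 and HCFC1 kept no such order through all 3 groups. With an SE of 0.25, the interval of the log2 difference of OGT was -0.46 to 0.65 in both treatments. Changes within these bounds were not resolved by a fit that makes no use of the column numbers, which are in no label.

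Markers of other cell types were low but moved with siMCRS1. CD3E and KRT5, markers of T cells and of basal epithelium, were at or under the floor in every library of the drug experiment. The summed level of the 6 markers was 416 to 487 in DMSO NTG and 596 to 960 in DMSO siMCRS1. It was 221 to 371 in EPZ-6438 NTG and 741 to 892 in EPZ-6438 siMCRS1. Of this, the collagen gene COL1A1 alone rose, by 1.25 on the log2 scale in DMSO (adjusted p = 0.034) and by 2.91 in EPZ-6438 (adjusted p = 0.00027), and with equal totals it did not pass in DMSO. Of the 8 hepatocyte markers, 1 fell with siMCRS1 in DMSO and 0 rose, with a median log2 difference of 0.11. In EPZ-6438, 1 fell and 1 rose (ALB, 0.57, adjusted p = 0.027, lost with equal totals), with a median of 0.03. The one that fell was the regulator HNF4A, by 0.55 in each treatment. The summed hepatocyte markers were 909463 to 1032360 in DMSO NTG and 978917 to 1174350 in DMSO siMCRS1. In EPZ-6438 these sums were 987558 to 1099470 with NTG and 1139830 to 1259980 with siMCRS1. The part of these shifts in the changes of NSL complex genes was not tested.

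No change of NSL complex mRNA with EPZ-6438 itself was resolved by the test used. None of the 8 members passed in NTG libraries, where 0.384% of all genes did, and none passed in siMCRS1 libraries, where 0.0908% did. With shares this small over all genes, 0 of 8 does not set the members apart. The limma test at an unadjusted p under 0.05 gave 1 member (KANSL2) in NTG and 0 in siMCRS1, and edgeR called 0 in each. KANSL2 was at 792 and 717 in DMSO and at 663, 559 and 570 in EPZ-6438, without overlap (log2 difference -0.34, 95% interval -0.65 to -0.03, adjusted p = 0.26). OGT had the largest estimate of the 8, a log2 difference of -0.36 with NTG and with siMCRS1. Its 95% interval was -0.92 to 0.19 in each, so changes within these bounds were not resolved. KAT8 differed by 0.10 between EPZ-6438 and DMSO with NTG (interval -0.30 to 0.50) and by -0.03 with siMCRS1 (interval -0.43 to 0.37).
The siMCRS1 effect was also compared between the treatments. No member passed, at an adjusted p of 1 for each of the 8, and 0% of all genes did. None reached an unadjusted p under 0.05 in limma, and edgeR called 0. For KAT8 the difference of the effects was -0.13 with an interval from -0.70 to 0.44, for HCFC1 -0.21 (-0.75 to 0.32), for KANSL2 0.22 (-0.22 to 0.66) and for WDR5 0.15 (-0.19 to 0.49). HCFC1 passing in EPZ-6438 and not in DMSO is therefore not shown to be a difference between treatments.

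The second question was whether loss of INO80, the ATPase of the other MCRS1 complex, changed mRNA of the NSL subunits. With siINO80#1, KANSL3 fell, OGT rose and 6 of 8 members did not pass. With siINO80#2, KAT8 fell, PHF20 and OGT rose and 5 did not pass. Over all genes 41.6% passed with siINO80#1 (20.7% higher, 20.8% lower) and 55% with siINO80#2 (26.6% higher, 28.4% lower). The members' counts of 2 and 3 of 8 again do not exceed these shares. Their median log2 difference was 0.07 with siINO80#1 and -0.08 with siINO80#2.

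OGT, the enzyme that modifies and cleaves HCFC1, was the member that rose with both siRNAs. It had 3454, 3276 and 3369 normalized counts in NTG A, B and C, then 4485, 4116 and 4426 with siINO80#1 and 4208, 3823 and 4294 with siINO80#2. All 6 siINO80 libraries were above all 3 NTG libraries. The log2 difference was 0.37 with siINO80#1 (SE 0.07, adjusted p = 0.0016) and 0.29 with siINO80#2 (SE 0.07, adjusted p = 0.0048), and it passed in all 16 alternatives for each siRNA. OGT did not pass between the siRNAs (log2 difference of siINO80#2 from siINO80#1 -0.08, interval -0.23 to 0.07).
PHF20 rose with siINO80#2. Its levels were 932, 942 and 812 with NTG, 1011, 950 and 1014 with siINO80#1 and 1262, 1217 and 1160 with siINO80#2. The siINO80#2 libraries were above all others. Its log2 difference from NTG was 0.44 with siINO80#2 (SE 0.08, adjusted p = 0.00069) and 0.15 with siINO80#1 (SE 0.08, adjusted p = 0.15).

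**Figure D2:**
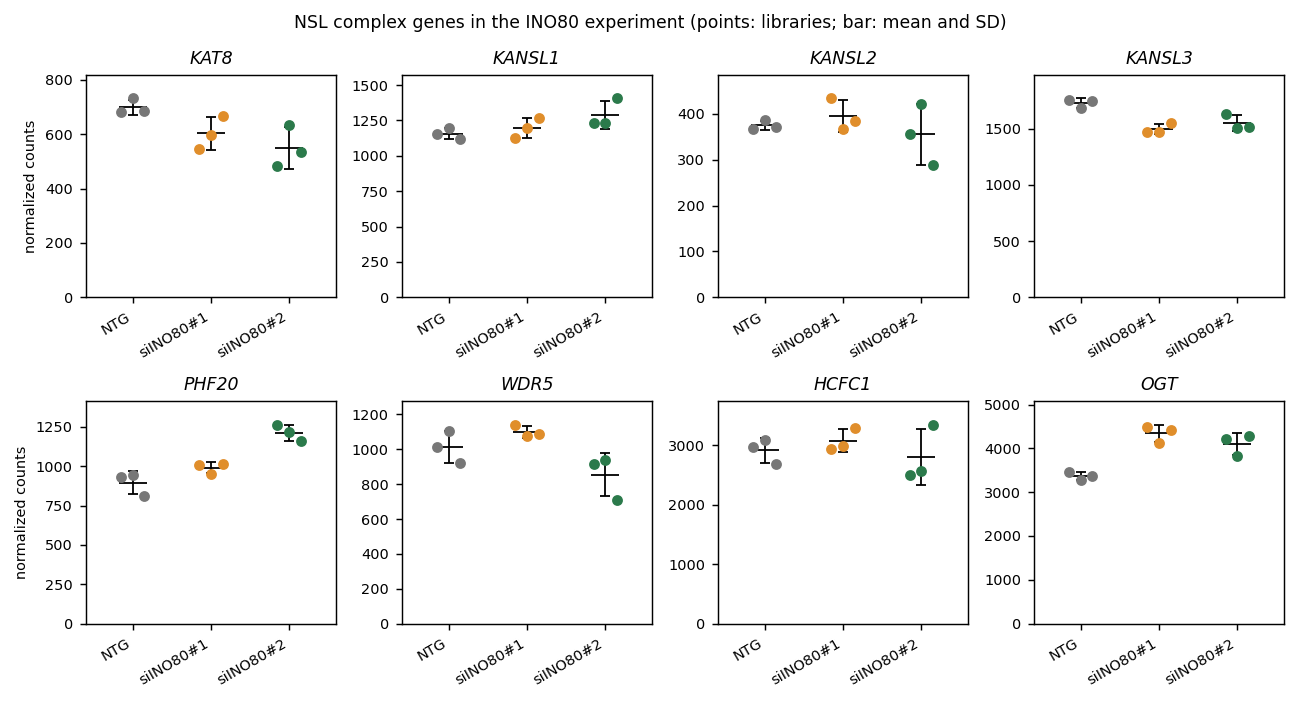
Normalized counts (linear axes from 0) of the 8 NSL complex genes in the INO80 experiment, by group. Points are libraries A, B and C and black bars give the mean and SD of 3 libraries. OGT lies between 3823 and 4485 in the siINO80 libraries and between 3276 and 3454 in NTG. KAT8 is lower with both siRNAs, from 482 to 666 against 680 to 732, and its difference passed with siINO80#2 only.

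KAT8 was lower in all 6 siINO80 libraries than in NTG. It had 680, 732 and 685 normalized counts with NTG, 545, 599 and 666 with siINO80#1 and 482, 633 and 534 with siINO80#2. The highest siINO80 library, at 666, was below the lowest NTG library, at 680. The mean was 86.3% of NTG with siINO80#1 (log2 difference -0.22, SE 0.11, adjusted p = 0.14) and 78.6% with siINO80#2 (-0.36, SE 0.11, adjusted p = 0.018). The call with siINO80#2 was lost without siINO80#2 A or without NTG B (adjusted p up to 0.074) and held without siINO80#2 C (-0.34, adjusted p = 0.037). Levels in the INO80 experiment and the drug experiment were normalized separately, so the size of the falls was not tested between them.
KANSL3 was at 1753, 1680 and 1749 with NTG, at 1469, 1471 and 1551 with siINO80#1 and at 1628, 1503 and 1511 with siINO80#2. Both siRNA groups lay below the NTG libraries. The log2 difference passed with siINO80#1 (-0.21, SE 0.06, adjusted p = 0.023) and not with siINO80#2 (-0.16, SE 0.06, adjusted p = 0.052). With siINO80#2 the difference of KANSL3 passed in 5 of 16 alternatives, among them the replicate letter as a block (limma, adjusted p = 0.045). With siINO80#1 it lost its call when NTG A, NTG C, siINO80#1 A or siINO80#1 B was left out, and OGT was then the only member that passed.

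WDR5 and HCFC1 did not pass against NTG with either siRNA in the main fit. WDR5 was at 1015, 1105 and 923 with NTG, at 1141, 1077 and 1086 with siINO80#1 and at 913, 936 and 711 with siINO80#2. The lowest value was that of siINO80#2 C, the library that stood apart. The log2 difference of WDR5 with siINO80#2 was -0.26 (adjusted p = 0.069), or -0.13 (adjusted p = 0.20) without that library. The difference of WDR5 passed in 4 of 16 alternatives. Among these were libraries rescaled to equal totals (-0.36, adjusted p = 0.047) and the replicate letter as a block (limma, adjusted p = 0.030). HCFC1 was at 2965, 3089 and 2687 with NTG, 2939, 2981 and 3293 with siINO80#1 and 2493, 2559 and 3344 with siINO80#2, where the highest value was again that of siINO80#2 C. Without that library HCFC1 was lower with siINO80#2 than with NTG (log2 difference -0.20, adjusted p = 0.044, against -0.07 and 0.62 with it).
KANSL1 had 1151, 1196 and 1117 normalized counts with NTG, 1129, 1196 and 1265 with siINO80#1 and 1228, 1230 and 1406 with siINO80#2. Its siINO80#2 libraries were all above NTG, with a log2 difference of 0.16 and an interval from -0.02 to 0.33. KANSL2 had 368, 386 and 372 with NTG, 434, 368 and 384 with siINO80#1 and 357, 422 and 289 with siINO80#2. It overlapped NTG with both siRNAs, with log2 differences of 0.07 (interval -0.22 to 0.36) and -0.09 (-0.38 to 0.20). Without siINO80#2 C the differences with siINO80#2 were 0.09 for KANSL1 (adjusted p = 0.29) and 0.05 for KANSL2 (adjusted p = 0.72), so that of KANSL2 took the other sign.
With siINO80#2 4 of the 8 hepatocyte markers fell, where 28.4% of all genes were lower. Their summed level was 561931 to 777958 against 688754 to 836900 with NTG. With siINO80#1 the sum was 794368 to 973577 and 1 marker, HNF4A, fell, where 20.8% of all genes were lower. The markers of other cell types summed to 339 to 352 with NTG, 426 to 467 with siINO80#1 and 333 to 439 with siINO80#2, with CD3E and KRT5 at 0 in every library of the INO80 experiment. Of the 4 tested with siINO80#2, 1 rose and 1 fell. The one that fell was COL1A1, a call lost with quantile normalization. The part of all these markers in the values of the NSL complex genes was not tested.
Between the siRNAs, 2 of 8 members differed, against 22.1% of all genes (9.48% higher and 12.6% lower with siINO80#2). PHF20 was higher with siINO80#2 (0.29, SE 0.08, adjusted p = 0.023) and WDR5 lower (-0.38, SE 0.11, adjusted p = 0.031). WDR5 was no longer called without siINO80#2 C (-0.25, limma adjusted p = 0.051). HCFC1 was then lower with siINO80#2 (-0.28, limma adjusted p = 0.027, against -0.15 and 0.39 with that library).

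**Figure D3:**
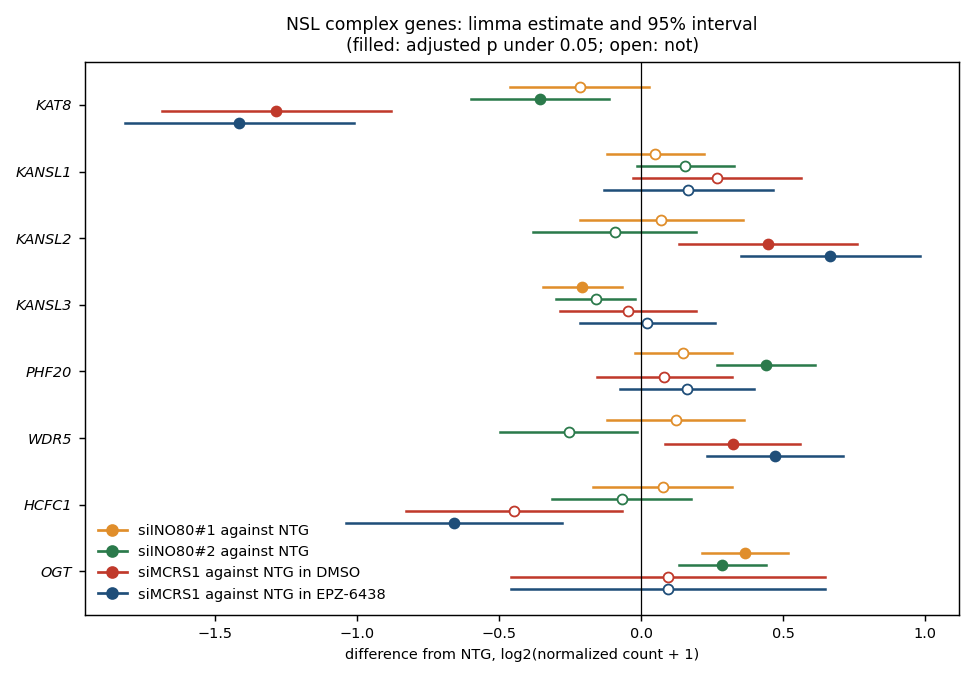
Differences from NTG on the scale log2(normalized count + 1) for the 8 NSL complex genes in 4 comparisons, with limma's 95% interval. Filled points passed at an adjusted p under 0.05 and open points did not. KAT8 at -1.28 and -1.41 with siMCRS1 is set apart from all other values, which lie between -0.66 and 0.67.

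Genes related to the members were read from lists of their paralogs and partners. No gene of these lists that passed in a comparison with NTG changed sign when libraries were rescaled to equal totals or normalized by quantiles, but some lost or gained a call. The siMCRS1 shares over all genes were 47.7% (DMSO) and 53.7% (EPZ-6438), and those with siINO80#1 and siINO80#2 were 41.6% and 55%. The lists are short, so their counts are descriptions beside these shares. Of the 4 paralogs, 2 fell with siMCRS1 in DMSO and none rose. WDR5B, a relative of WDR5, fell from a mean of 227 ± 11.3 normalized counts (SD, n = 2) to 114 ± 9.72 (n = 3), and HCFC2, a relative of HCFC1, fell from 381 ± 13.7 to 265 ± 31.1. The same count, 2 lower and 0 higher, was found with equal totals, but HCFC2 lost its call with quantile normalization. The log2 differences of WDR5B and HCFC2 were -0.99 (limma adjusted p = 0.0017) and -0.53 (limma adjusted p = 0.0095). WDR5B thus fell where WDR5 rose. PHF20L1 (0.20) and KANSL1L (0.14) did not pass in DMSO. In EPZ-6438 WDR5B (-1.19) and HCFC2 (-0.76) fell as well and PHF20L1 rose (0.31, adjusted p = 0.026), a call lost with equal totals. With siINO80#1 none of the 4 passed (edgeR and limma at an unadjusted p under 0.05 also gave 0), and with siINO80#2 PHF20L1 rose (0.43, adjusted p = 0.0030), as did PHF20.

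MSL is the other complex that KAT8 serves, and it acetylates lysine 16 of histone H4. Its subunits MSL1 and MSL2 rose with siMCRS1 in both treatments while KAT8 fell. MSL1, the scaffold, went from 3617 ± 91.1 normalized counts in DMSO NTG to 5825 ± 153 in DMSO siMCRS1, a log2 difference of 0.69 (adjusted p = 0.00012). MSL2, the ubiquitin ligase subunit, went from 668 ± 69.8 to 1103 ± 63.3 (0.73, adjusted p = 0.00058). MSL3, the chromodomain subunit, was at 535 ± 16.1 and 491 ± 30.7 (-0.13, adjusted p = 0.48). With equal totals 2 of the 3 still rose in each treatment. MSL1 also rose with siINO80#1 (0.41) and siINO80#2 (0.28), MSL2 with siINO80#1 (0.42) and MSL3 with siINO80#2 (0.43), where MSL1 lost its call with equal totals.

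Of the 4 other acetyltransferases of the MYST family, 3 rose and none fell with siMCRS1 in DMSO, and 1 rose (KAT5) with equal totals. The counts were the same in EPZ-6438. KAT5, the catalytic subunit of the TIP60 complex, rose from 377 ± 17.8 to 791 ± 34.2 normalized counts (log2 difference 1.07, adjusted p = 0.00011). KAT6A (0.48, adjusted p = 0.039) and KAT6B (0.56, adjusted p = 0.016) rose less, and KAT7 was at 0.12 (adjusted p = 0.38). KAT5 was also higher with every other knockdown. It rose from 220 ± 21.1 with NTG to 514 ± 4.01 with siINO80#1 (1.22) and 504 ± 36.7 with siINO80#2 (1.19), where KAT8 was at -0.22 and -0.36. In EPZ-6438 the siMCRS1 difference of KAT5 was 0.91.
Of the 4 enzymes that can remove acetyl groups from lysine 16 of histone H4, SIRT1 and HDAC1 rose and SIRT2 fell with siMCRS1 in DMSO, while HDAC1 lost its call with equal totals. SIRT2 went from 682 ± 90.8 to 368 ± 61.6 (-0.90, adjusted p = 0.0041) and SIRT1 from 1163 ± 55.5 to 1776 ± 107 (0.61, adjusted p = 0.0017). HDAC1 was at 0.33 (adjusted p = 0.049) and HDAC2 at 0.29 (adjusted p = 0.069). In EPZ-6438 SIRT1, HDAC1 and HDAC2 rose and SIRT2 fell (-1.43), and HDAC1 and HDAC2 lost their calls with equal totals. With siINO80#1 SIRT2 alone passed (-0.26), and with siINO80#2 none of the 4 did (limma at an unadjusted p under 0.05 gave 1 and edgeR 0).

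**Figure D4:**
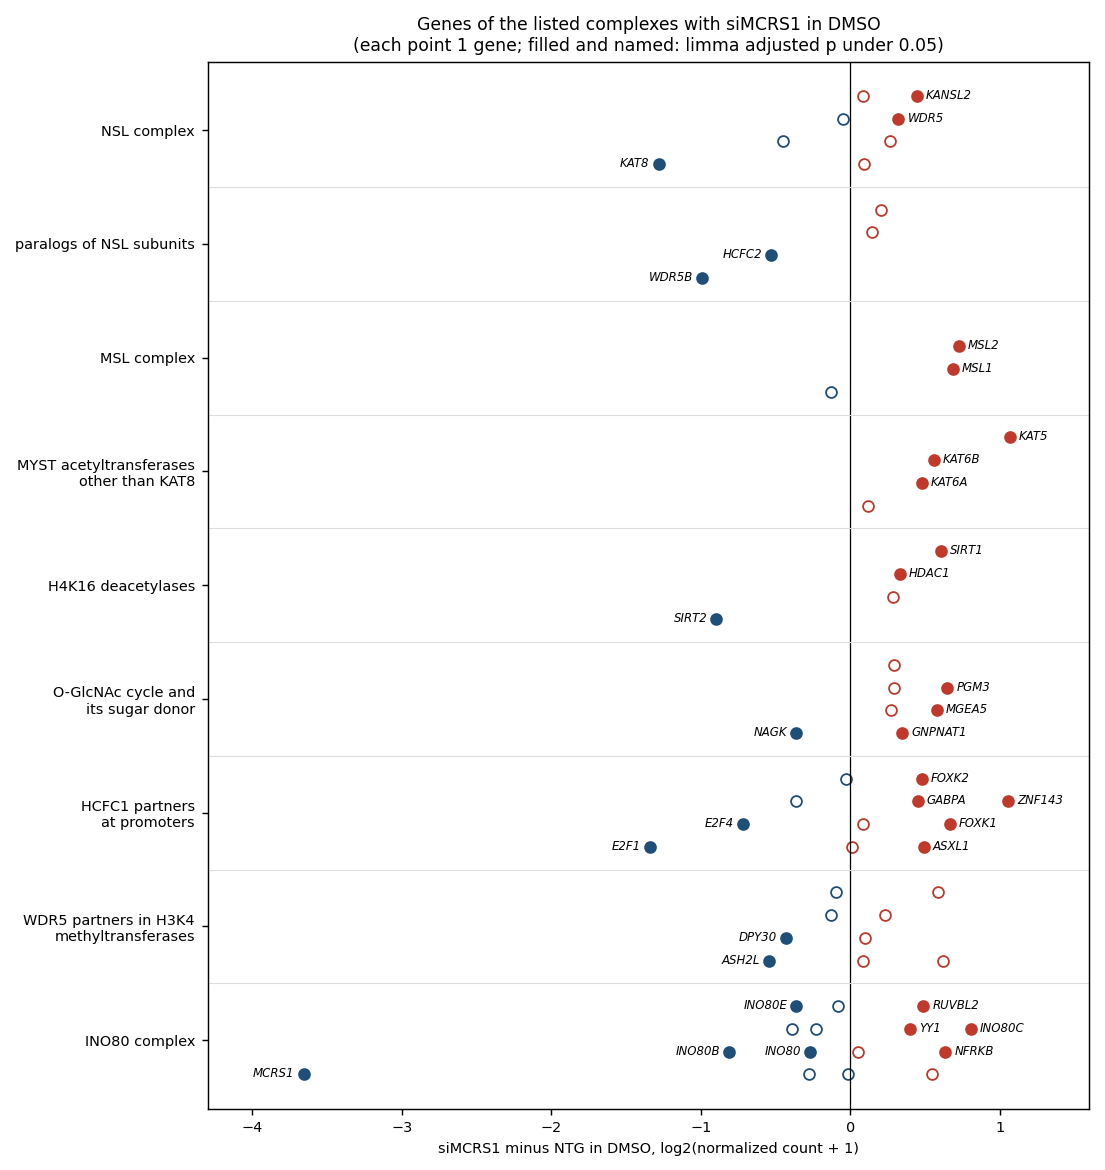
Differences between siMCRS1 and NTG in DMSO, on the scale log2(normalized count + 1), for the NSL complex and 8 lists of related genes. Each point is 1 gene, red for positive and blue for negative values, and filled, named points passed limma at an adjusted p under 0.05. KAT8 (-1.28) is lower while KAT5 (1.07), MSL1 (0.69) and MSL2 (0.73) are higher.

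For OGT, the genes of the O-GlcNAc cycle and of its sugar donor were read. In DMSO with siMCRS1, 3 of 7 rose and 1 fell, or 1 and 1 with equal totals, where MGEA5 did not pass. PGM3, which acts in the pathway to UDP-GlcNAc, rose by 0.65 (adjusted p = 0.00022). OGA, listed under its older symbol MGEA5 and the enzyme that removes what OGT adds, rose by 0.58 (adjusted p = 0.0037), and NAGK, the salvage kinase of N-acetylglucosamine, fell by 0.36 (adjusted p = 0.013). OGA mRNA was also higher with siINO80#1 (0.34) and siINO80#2 (0.47), the siRNAs with which OGT rose. In EPZ-6438, 5 of the 7 genes rose with siMCRS1 and 1 fell, or 3 and 1 with equal totals.
Among 11 factors known to work with HCFC1 at promoters, 5 rose and 2 fell with siMCRS1 in DMSO, and 5 and 2 also in EPZ-6438. With equal totals 2 rose and 3 fell in DMSO, and 3 and 2 in EPZ-6438. ZNF143 rose from 519 ± 5.24 to 1090 ± 171 normalized counts (1.06, adjusted p = 0.00031). The cell cycle factor E2F1 fell from 1964 ± 484 to 773 ± 151 (-1.34, adjusted p = 0.00074), and E2F4 fell by 0.72 (adjusted p = 0.0024). E2F1 was lower with siINO80#1 (-0.88) and siINO80#2 (-1.41) as well.
Of 9 partners of WDR5 in H3K4 methyltransferases, 2 fell with siMCRS1 in DMSO and none rose, or 3 and 0 with equal totals. The 2 were the shared core subunits ASH2L (-0.55, adjusted p = 0.0072) and DPY30 (-0.43, adjusted p = 0.0083). In EPZ-6438 1 fell, DPY30 (-0.45), with ASH2L at -0.34 (adjusted p = 0.053), and 3 fell with equal totals. Against INO80, 1 of the 9 rose and 3 fell with siINO80#1 (0 and 3 with equal totals), and 3 rose and 2 fell with siINO80#2 (2 and 3). ASH2L and DPY30 fell with both siRNAs against INO80, by 0.56 and 0.35 with siINO80#1 and by 0.93 and 0.21 with siINO80#2.
INO80-C, the other complex with MCRS1, had 4 of its 15 genes higher and 4 lower with siMCRS1 in DMSO. MCRS1 itself and INO80 were among the 4 lower genes, and equal totals gave 2 higher and 7 lower. In EPZ-6438, 4 were higher and 5 lower, or 2 and 8 with equal totals. INO80C rose by 0.81 (adjusted p = 0.00072) and INO80B, another small subunit, fell by 0.81 (adjusted p = 0.0018). The median over the 15 genes was -0.08, against 0.09 over the 8 members of the NSL complex.

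Genes with a pattern most like KAT8 were found among 13533 genes tested in both experiments, by the root mean square of the differences from KAT8 over the 4 comparisons of a knockdown with NTG. ENKD1 was the nearest at 0.062, followed by CDH15 and ACAP3 at 0.064 each. With siINO80#1, with siINO80#2 and with siMCRS1 (DMSO, then EPZ-6438), the log2 differences of KAT8 were -0.22, -0.36, -1.28 and -1.41. ENKD1 had -0.29, -0.40, -1.35 and -1.36, CDH15 had -0.30, -0.38, -1.38 and -1.39, and ACAP3 had -0.14, -0.30, -1.20 and -1.44. The comparisons within an experiment share NTG libraries or a fit, and the likeness is a description.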

How the data were processed

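HepG2 mRNA-seq libraries (9 in the INO80 experiment, 10 in the drug experiment) were grouped by their labels. Libraries were made with a stranded Kapa kit, and the submitters' processing notes name kallisto, DESeq2 and GRCh38. The annotation and versions are not given in the sources used here. For each experiment the authors deposited a table of signal values, which are counts per gene scaled by a library's size factor. Division by the value of 1 read gave whole reads for 100% of values (tolerance 0.001), and all sample columns were used.

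Genes averaging 10 or more normalized counts (14034 and 14312) were tested as log2(value + 1) with limma 3.58.1 in R 4.3.3, all groups of an experiment in 1 fit, eBayes with a trend and a Benjamini-Hochberg adjusted p under 0.05. This scale slightly understates changes of low genes. Intervals are 95%. edgeR 4.0.16 (quasi-likelihood) on the recovered reads was an alternative added after the tables were seen. Other alternatives were the pseudocount, the filter, the scaling, the trend, the groups in the fit, the replicate block and leaving out each library. Columns of the drug table carry numbers that the labels do not, so they were assigned to groups only. Replicates differed by more than sampling noise (chi-square per degree of freedom 9.45 to 121), and none was treated as a copy. A level of 3 reads, the floor, was 2.13 to 4.30 normalized counts. It covers counting error only. The code of the fits was also run on simulated counts, with far fewer changed genes than here and 1 spread for all genes. That run does not bear on the calls of members.

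The members and lists were chosen with earlier results of these data known. All 8 members, INO80 and MCRS1 are named, with every gene of lists of up to 4 genes. Of longer lists up to 3 genes are named, those with the largest change among called genes with a mean of at least 50 and no overlap with siMCRS1 in DMSO. HNF4A and COL1A1 were named after their values were seen. The 3 genes nearest to KAT8 were taken by root mean square difference. Positions and promoter windows are from RefSeq, GRCh38.p14, matched by symbol.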

Additional observations from a re-analysis of the deposited data

How the results depend on the processing

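The direction of every called member held in all alternatives run, and of 976 alternative values for the 8 members in 8 comparisons, 928 stayed on the same side of the threshold, 31 lost a call and 17 gained one. Of the values that missed the threshold, 48 took the other sign. With siINO80#2 against NTG, 3 members passed, 5 with libraries rescaled to equal totals and 5 with the replicate block (KANSL3 and WDR5 lower in addition, each time). Between the siRNAs against INO80, 2 passed, 0 with equal totals, 1 without a trend and 1 with only the compared groups in the fit. Leaving out 1 library gave 1 to 2 members with siINO80#1, 2 to 4 with siINO80#2, 0 to 2 between the siRNAs, 1 to 3 in DMSO and 4 in EPZ-6438 with siMCRS1. The letters A, B and C were not taken to pair libraries in the main fit. Same-lettered pairs had correlations of deviations from -0.08 to 0.26, 5 of 9 over 0.1, with a mean of 0.10. Other pairs had a mean of -0.05, and 8 of 9 libraries correlated best with one of their own letter. What libraries of a letter share was not tested. The replicate block changed no other count of members. No paired analysis was run in the drug experiment, because the numbers of its columns are in no label and 1 group has letters instead. Whether equal numbers mark a shared batch was not tested. With equal totals, 39.8% of called genes were higher with siINO80#1 and 38.7% with siINO80#2, against 49.9% and 48.3% as deposited. The cause of these shifts was not tested. With 2 or 3 libraries a group, OGT had its widest intervals in the drug experiment.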
